A study of Mus musculus with 6 samples.

Results

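Collagen genes were read from heart tissue RNA of sham and tail-suspended mice. The group was made of every probe on the array, controls left out, whose gene name was Col, a number, the letter a and a number. It held 63 probes of 41 genes, of 55681 probes and 28909 named genes in all. A gene was read from its brightest probe, by the mean log2 intensity over the 6 arrays, with its other probes beside it. Of the 41 genes, 11 code for fibrillar collagens, 6 for the type IV collagens of basement membranes and 24 for other collagens. No probe carried the name Col6a3, Col6a5 or Col26a1, which were not analysed here.

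All animals were male C57BL/6 mice and the tissue was cardiac muscle. The 3 sham mice were kept in the same space and fed alike without being suspended, and the 3 others were hung by the tail for 28 days, a model that takes the load off the hindlimbs to simulate microgravity. By the labels the mice were 10 weeks old when suspension began, yet their listed age is 11 weeks, so the age at collection is not settled. Each mouse gave 1 array. Defining cardiomyocyte markers such as Tnnt2 and Myl2 were well above background on all 6 arrays. The 6 arrays shared 1 slide and 1 scan, with 50.9% to 53.4% of probes well above background and no saturated spot. In the first row of the slide were the sham arrays and tail-suspension replicate 1, and the second row held tail-suspension replicates 2 and 3.

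Collagens are the main structural proteins of the extracellular matrix. Their chains carry a repeated glycine-X-Y unit, wind around each other as a triple helix and are secreted as procollagen. In the heart, types I and III form the fibrils between muscle bundles and are made mainly by fibroblasts, type IV forms the sheet of basement membrane around cardiomyocytes and vessels, and type VI forms beaded filaments that link the basement membrane to the fibrils. Collagen mRNA levels are a common readout of cardiac fibroblast activity and of fibrosis.

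The glycine repeat can be read directly in the array's own sequences. Of the 63 probes, each 60 bases long, 2 lay in a frame with glycine at each repeat. The only one of these that was tested was the main probe of Col15a1, one of the collagen genes called lower, at chr4:47283786-47283845 on the plus strand of mm9. It is shown here because it ties that measurement to the helix-coding part of the transcript, with the glycine codons in capitals.

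Col15a1 probe: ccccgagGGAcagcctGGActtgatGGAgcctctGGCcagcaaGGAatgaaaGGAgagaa

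Of the 26 collagen genes that could be tested, 11 were lower after tail-suspension and 1 was higher. At an adjusted p under 0.05 by limma, with Benjamini-Hochberg adjustment over all 28032 tested probes, the lower genes were Col15a1, Col22a1, Col3a1, Col6a2, Col4a3, Col8a1, Col4a1, Col6a1, Col25a1, Col4a4 and Col4a2. Col7a1 was the only collagen gene that was higher. The levels given are intensities as a multiple of the 75th percentile of their own array, and the fold changes are differences of their log2 means, tail-suspension minus sham.

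A probe was tested if it was well above background on all arrays of at least 1 group, which 26 of the 41 genes met. The 12 genes called were 46.2% of these 26, and 42.3% were called lower. Over the 17137 genes tested on the array, read from 1 probe each, 21.2% were called, 10.6% higher and 10.5% lower. The 3 sham and 3 tail-suspension arrays did not overlap for 18 of the 26 collagen genes, or 69.2%, against 46.5% of all tested genes. Of the 14 genes that were not called, 13 had a fold change below 0. The median log2 difference was -0.47 over all 41 collagen genes and -0.00076 over all 28909 genes. It was -0.63 over the 11 fibrillar genes, -0.61 over the 6 basement membrane genes and -0.17 over the 24 others, 9 of which were well above background on no array. Over the tested genes alone the class medians lay closer together, at -0.77, -0.61 and -0.70.

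**Figure D1:**
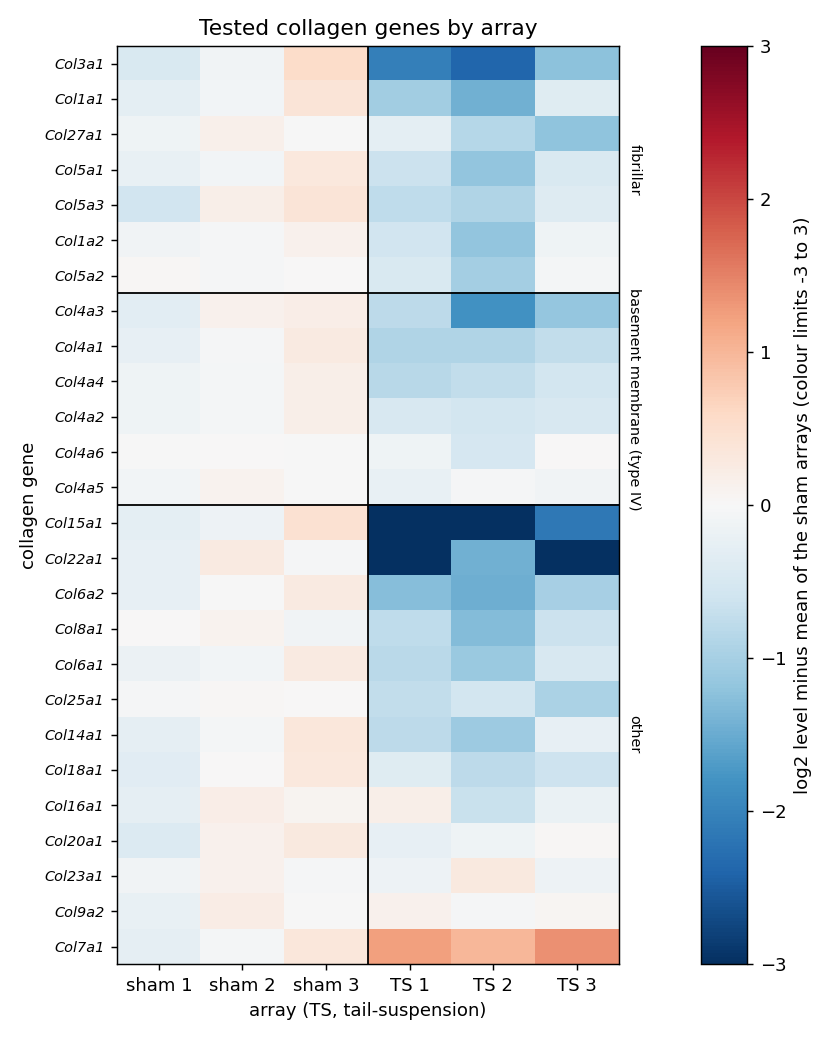
Each row is a tested collagen gene and each column an array, grouped by class. Colour gives the log2 level minus the mean of the 3 sham arrays, with colours held at -3 and 3. The tail-suspension columns are blue for most genes, Col15a1 and Col22a1 reach the lower limit of the scale, and Col7a1 stands out in red.

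The spread between the arrays was shared by many collagen genes. Over the 22 genes well above background on all 6 arrays, the median log2 deviation from the sham mean was -0.22, -0.02 and 0.22 on sham replicates 1, 2 and 3. It was -0.53, -0.87 and -0.39 on tail-suspension replicates 1, 2 and 3. Sham replicate 1 was the lowest sham array for 20 of these genes, and tail-suspension replicate 2 the lowest and replicate 3 the highest tail-suspension array for 16 each. The calls depended on single arrays: the number of lower collagen genes was 10, 5 and 9 without sham replicates 1, 2 and 3, and 8, 10 and 9 without tail-suspension replicates 1, 2 and 3. The share of all tested genes called lower also varied, from 10.5% with every array to 4.26%, 3.12% and 7.76% without sham replicates 1, 2 and 3 and to 5.87%, 10.2% and 3.74% without tail-suspension replicates 1, 2 and 3.

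Position on the slide moved with the groups. When the row was fitted as a block, which sets tail-suspension replicate 1 against the 3 sham arrays, no collagen gene passed the adjusted threshold in limma, and 10 were lower and 1 was higher at an unadjusted p under 0.05. Over all tested genes in that fit 0.677% were lower at the adjusted threshold, and 10.4% were lower and 11.3% higher at an unadjusted p under 0.05. In the same fit the 11 genes called lower had changes from -3.39 for Col22a1 to -0.49 for Col4a2, with adjusted p values from 0.0514 for Col15a1 to 0.239 for Col4a3 (limma), and Col7a1 had 1.24. Within the first row, tail-suspension replicate 1 lay below all 3 sham arrays for the 11 genes called lower and above them for Col7a1. This follows from their groups not overlapping and is no separate check, because the calls used that array. Over all 26 tested genes tail-suspension replicate 1 lay below the sham mean for 23, with a median difference of -0.69. Over all 28032 tested probes the median change in the row fit was -0.001. The share of all tested genes below the sham mean on that array was not computed. The row of replicates 2 and 3 holds no sham array.

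**Figure D2:**
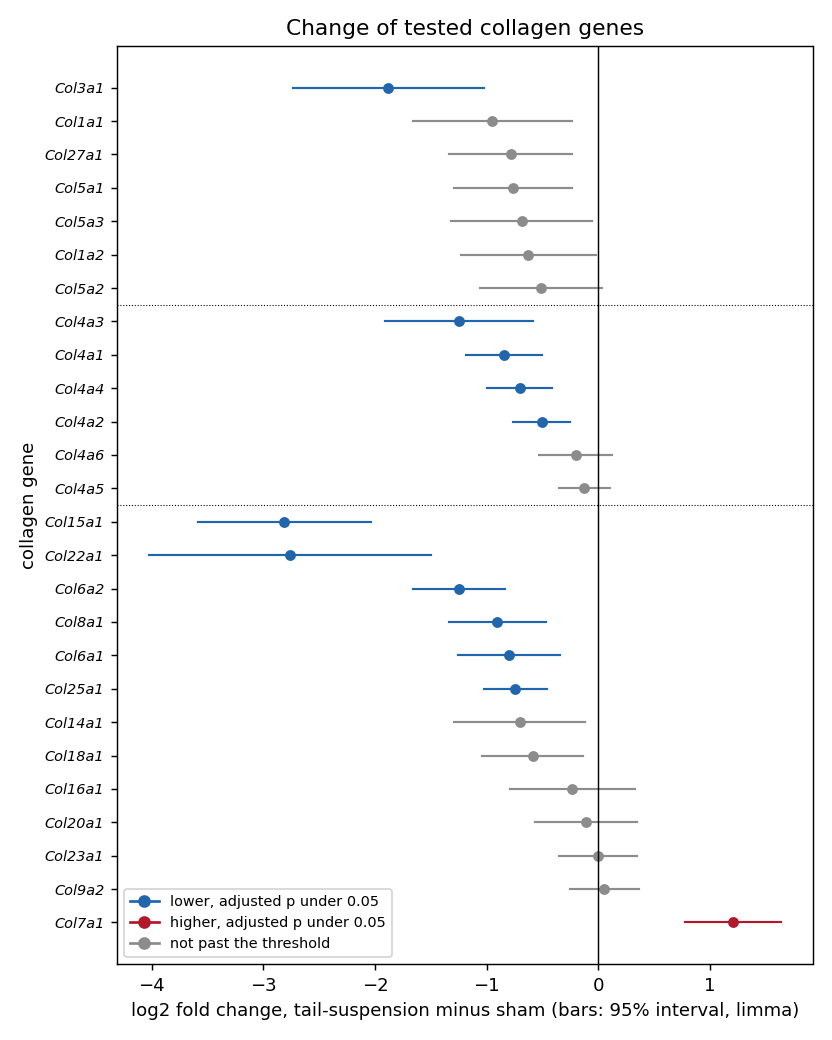
Points are log2 fold changes of the 26 tested collagen genes, tail-suspension minus sham, and bars are 95% intervals of the limma fit with 3 arrays in each group. Dotted lines part fibrillar, basement membrane and other collagens. Blue marks the 11 genes called lower, red the 1 called higher, and grey the 14 that did not pass.

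The fibrillar collagens build the load-bearing fibrils. Of the 11 genes 7 were tested, and 1 of them, Col3a1, fell. That is 14.3%, near the 10.5% of all tested genes called lower. The other 6 had fold changes between -0.95 and -0.51 and did not pass the adjusted threshold, and 6 of the 7 genes had groups that did not overlap, where 46.5% of all tested genes had such groups. At an unadjusted p under 0.05 (limma), 6 of the 7 were lower, against 20.5% of all tested genes.

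Col3a1 encodes the single chain of type III collagen, the fine fibrils of compliant tissue. Its level was 11.7, 15.0 and 23.3 times the 75th percentile in sham replicates 1, 2 and 3 and 3.88, 3.09 and 6.88 in tail-suspension replicates 1, 2 and 3. The highest tail-suspension array lay below the lowest sham array. Mean log2 levels were 4.0 ± 0.50 for sham and 2.12 ± 0.60 for tail-suspension (SD, n = 3 each), a change of -1.88 (SE 0.36, adjusted p = 0.0177, limma), or 3.68-fold lower. The call was lost without sham replicate 2 (-1.93, adjusted p = 0.0607, limma) and without tail-suspension replicate 1 (-1.8, adjusted p = 0.0532, limma).

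Col1a1 and Col1a2 encode the chains of type I collagen, the main fibril of the myocardium. Col1a1 lay at 7.02, 8.14 and 11.3 in sham replicates 1, 2 and 3 and at 4.22, 3.18 and 6.67 in the tail-suspension replicates. Col1a2 lay at 34.4, 35.8 and 40.5 in sham and at 24.8, 16.3 and 33.5 in tail-suspension. For both genes the groups did not overlap, but tail-suspension replicate 3 came close to the lowest sham array. The changes were -0.95 for Col1a1 (SE 0.30, adjusted p = 0.0656, limma) and -0.63 for Col1a2 (SE 0.25, adjusted p = 0.119, limma), and neither passed. Without tail-suspension replicate 3, Col1a1 passed at -1.24 (adjusted p = 0.0397, limma).

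Type V collagen sits inside type I fibrils and limits their diameter. Its chain Col5a1 lay at 2.48, 2.72 and 3.57 in sham and 1.84, 1.27 and 2.09 in tail-suspension, without overlap, and changed by -0.77 (SE 0.22, adjusted p = 0.0527, limma). Its chain Col5a2 lay at 0.215, 0.205 and 0.212 in sham and 0.154, 0.104 and 0.201 in tail-suspension, a change of -0.51 (SE 0.23, adjusted p = 0.149, limma). The 3 sham arrays were close together for Col5a2 and the tail-suspension arrays spread widely just below them. Col5a3, a minor chain, changed by -0.69 (adjusted p = 0.109, limma) with groups that overlapped, and passed without sham replicate 1 (-0.97, adjusted p = 0.0352, limma). Col27a1, a fibrillar collagen of cartilage, changed by -0.79 (adjusted p = 0.0550, limma) and passed without tail-suspension replicate 1 (-1.04, adjusted p = 0.0203, limma). Col2a1, the main collagen of cartilage, Col11a1 and Col24a1 were well above background on no array, and Col11a2 was so on 2 sham and 2 tail-suspension arrays.

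The type IV collagens form the network of the basement membrane. All 6 genes were tested and 4, or 66.7%, fell, against 10.5% of all tested genes called lower. They were Col4a3, Col4a1, Col4a4 and Col4a2, of which Col4a3 met the condition for testing through the sham arrays alone. The other 2, Col4a5 and Col4a6, changed by -0.13 (adjusted p = 0.376, limma) and -0.20 (adjusted p = 0.319, limma), with groups that overlapped.

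Col4a1 and Col4a2 encode the chains of the common type IV network found in almost every basement membrane. Col4a1 lay at 20.3, 23.5 and 28.8 in sham and at 12.8, 12.9 and 14.3 in tail-suspension. Its tail-suspension arrays lay close together and well below every sham array. The change was -0.85 (SE 0.14, adjusted p = 0.0125, limma), or 1.8-fold lower, from log2 levels of 4.58 ± 0.25 to 3.74 ± 0.09 (SD, n = 3 each). Col4a2 lay at 19.4, 20.5 and 24.1 in sham and at 15.1, 14.5 and 15.2 in tail-suspension, again without overlap, and changed by -0.51 (SE 0.11, adjusted p = 0.0228, limma), or 1.42-fold lower.

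Col4a3 and Col4a4 encode chains of the second type IV network, best known from the kidney glomerulus. Col4a3 lay at 0.0583, 0.0797 and 0.0830 in sham and at 0.0425, 0.0208 and 0.0326 in tail-suspension, where 1 of 3 arrays was well above background. The groups did not overlap and the change was -1.25 (SE 0.28, adjusted p = 0.0267, limma), which the normexp background correction moved to -0.46 and the row block to -0.77. Col4a4 changed by -0.71 (SE 0.12, adjusted p = 0.0136, limma), and its second tested probe by -1.08 (adjusted p = 0.00908, limma). The call of Col4a2 was lost without sham replicate 2, tail-suspension replicate 1 or tail-suspension replicate 3 (adjusted p = 0.0712, 0.0598 and 0.0679, limma), and that of Col4a3 without sham replicate 2, sham replicate 3 or tail-suspension replicate 3 (adjusted p = 0.0930, 0.0692 and 0.0713, limma).

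The paired layout of the type IV genes makes their promoters worth showing. Col4a1 and Col4a2 lie head to head on mouse chromosome 8 and are read in opposite directions, with start sites 21 bases apart in RefSeq on GRCm38.p6. The Col4a1 window, from 250 bases before to 50 after the start, covers chr8:11312777-11313076 on the minus strand, and its last 78 bases, in capitals, also belong to the Col4a2 window.

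Col4a1 promoter: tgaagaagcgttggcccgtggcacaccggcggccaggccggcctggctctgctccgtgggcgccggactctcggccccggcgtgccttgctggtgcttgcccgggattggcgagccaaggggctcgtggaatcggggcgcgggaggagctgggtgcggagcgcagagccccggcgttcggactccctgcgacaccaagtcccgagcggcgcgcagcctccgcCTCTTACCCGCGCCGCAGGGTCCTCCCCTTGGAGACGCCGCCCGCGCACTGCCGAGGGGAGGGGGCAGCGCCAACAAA

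This gene pair with an overlapping promoter window was lower at both members, but by unequal amounts. Within each array the log2 level of Col4a1 minus that of Col4a2 was lower by 0.34 in tail-suspension, with no overlap of the groups (two-sided p = 0.1 by an exact permutation test, the lowest possible with 3 against 3 arrays). Col4a5 and Col4a6, also head to head but with starts 1343 bases apart on X, had changes that differed by 0.08 (exact permutation test, two-sided p = 1). Across 7 pairs of chains or neighbouring genes compared in this way, none could pass after adjustment, where the lowest value was 0.175 (exact permutation tests). The changes of Col4a3 and Col4a4 differed by -0.54 with overlapping groups (exact permutation p = 0.3).

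Among all 7 pairs, Col3a1 and Col5a2, neighbours on chromosome 1, differed most. The change of Col3a1 minus that of Col5a2 was -1.37, with no overlap of the groups (exact permutation p = 0.1). The change of Col1a1 minus that of Col1a2 was -0.32, also without overlap (exact permutation p = 0.1). The change of Col5a1 minus that of Col5a2 was -0.25, with groups that overlapped (exact permutation p = 0.3).

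**Figure D3:**
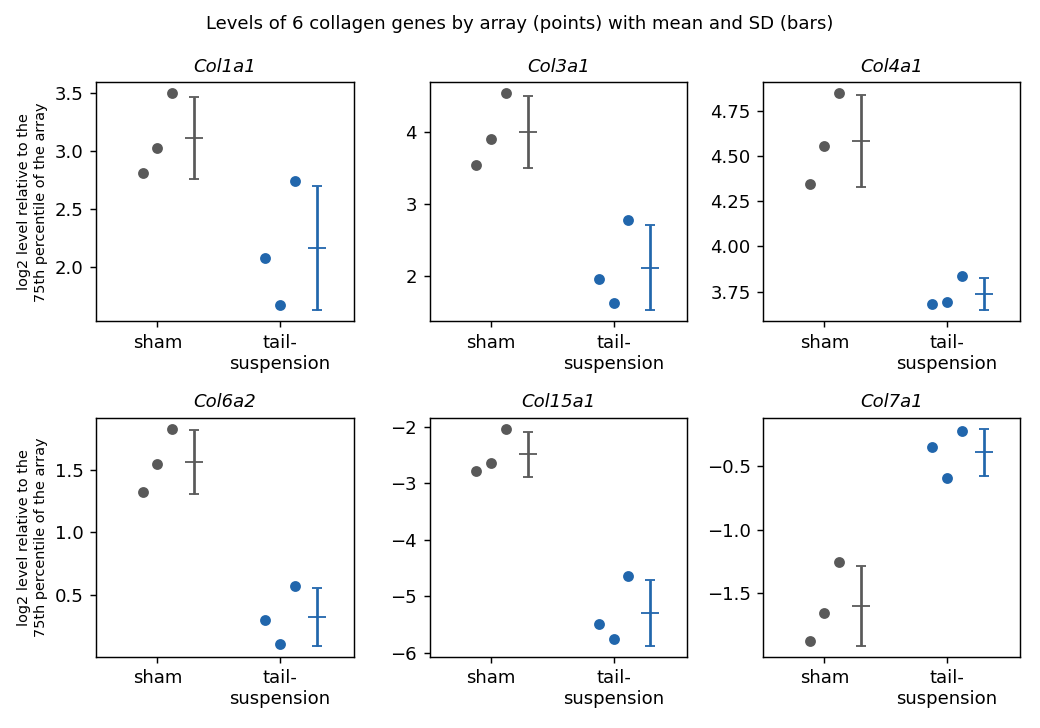
Log2 level relative to the 75th percentile of the array for 6 collagen genes, with 1 point per array in the order of replicates 1 to 3 and bars for the mean and SD of 3 arrays. The scales differ between panels. Sham lies above tail-suspension without overlap for Col1a1, Col3a1, Col4a1, Col6a2 and Col15a1, and below it for Col7a1.

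The other collagens include the beaded filament, the fibril-associated, the network-forming, the transmembrane and the anchoring types. Of the 24 genes 13 were tested, 6 fell, 1 rose and 6 did not pass. The share called lower was 46.2%, against 10.5% of all tested genes. Among the lower genes, Col6a1 and Col6a2 of type VI and Col8a1 were well above background on all 6 arrays. Col15a1, Col22a1 and Col25a1 were lower as well, but met the condition for testing through the sham arrays alone. Of the 5 tested fibril-associated genes, Col22a1 was the 1 that passed, or 20.0% called, near the 21.2% of all tested genes.

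Type VI collagen surrounds cardiomyocytes with microfibrils. Col6a2 lay at 2.5, 2.93 and 3.56 in sham and at 1.23, 1.07 and 1.48 in tail-suspension, and Col6a1 at 15.4, 16.4 and 20.8 in sham and at 9.94, 8.0 and 12.5 in tail-suspension. Both genes had every tail-suspension array below every sham array. Col6a2 fell by 1.25 (SE 0.17, adjusted p = 0.00748, limma) and kept its call in every alternative but the row block, where the adjusted p was 0.0843 (limma). Col6a1 fell by 0.80 (SE 0.19, adjusted p = 0.0332, limma), a call that was lost without sham replicate 1, 2 or 3 (adjusted p = 0.0633, 0.0899 and 0.0757, limma) and without tail-suspension replicate 1 or 2 (adjusted p = 0.0824 and 0.0535, limma). The change of Col6a1 minus that of Col6a2, its neighbour on chromosome 10, was 0.44 without overlap (exact permutation p = 0.1).

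Col15a1 encodes a collagen that holds basement membranes to the fibrils beneath them and is needed for normal heart muscle and capillaries. Its level was 0.145, 0.161 and 0.245 in sham and 0.0222, 0.0186 and 0.0401 in tail-suspension. It was well above background on all 3 sham and on no tail-suspension array, so that only a bound can be given. By this bound, which puts no tail-suspension array below the dimmest signal counted as well above background on it, Col15a1 was at least 3.89-fold lower. The fitted change was -2.81 (SE 0.32, adjusted p = 0.00449, limma), which the normexp background correction moved to -0.91. A second tested probe gave -2.70 (adjusted p = 0.00231, limma) with a bound of at least 1.56-fold, and a further probe was well above background on no array.

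Col18a1, the closest relative of Col15a1 and the source of endostatin, lay at 1.07, 1.37 and 1.69 in sham and at 1.05, 0.789 and 0.879 in tail-suspension. The groups were apart by little, and the change of -0.59 (SE 0.19, adjusted p = 0.0709, limma) did not pass, nor did its second probe at -0.50 (adjusted p = 0.130, limma). Counted with the 6 type IV genes, Col15a1 and Col18a1 would make a basement membrane group of 8, all 8 with fold changes below 0 and 5 called lower. That is 62.5%, against 10.5% of all tested genes called lower.

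Col8a1, a short-chain collagen of vessel walls, lay at 0.311, 0.334 and 0.289 in sham and at 0.183, 0.126 and 0.199 in tail-suspension. It fell by 0.91 (SE 0.18, adjusted p = 0.0202, limma), a call that was lost without sham replicate 1 or 2 (adjusted p = 0.0608 and 0.0773, limma). Col22a1, a collagen of tissue junctions such as that of muscle and tendon, lay at 0.141, 0.203 and 0.165 in sham and at 0.0160, 0.0617 and 0.0153 in tail-suspension. All tail-suspension arrays were below all sham arrays, and only replicate 2, the highest of them, was well above background. Its fitted change was -2.76 (SE 0.53, adjusted p = 0.0182, limma), which normexp moved to -0.92, and the call was lost without sham replicate 2 and without tail-suspension replicate 1 or 3 (adjusted p = 0.0700, 0.0515 and 0.0569, limma). Col25a1, a transmembrane collagen, fell by 0.75 (SE 0.12, adjusted p = 0.0107, limma), with 1 of 3 tail-suspension arrays well above background and a value of -0.37 under normexp.

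Col15a1, Col22a1, Col4a3 and Col25a1 passed the filter on dim probes only through the sham group. The filter thus chose them for their sham signal, which favours a lower value in tail-suspension. With only probes well above background on all 6 arrays, 22 collagen genes were tested, of which 9 were lower and 1 was higher. Over all 26248 probes of this kind, 9.93% were lower.

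Col7a1 ran against the other collagens. It encodes the anchoring fibrils that fasten the basement membrane of skin to the dermis. Its level was 0.273, 0.317 and 0.419 in sham and 0.782, 0.664 and 0.853 in tail-suspension, so that every tail-suspension array lay above every sham array. The rise was 1.2 (SE 0.18, adjusted p = 0.00894, limma), or 2.30-fold, and it kept its call in every alternative but the row block (adjusted p = 0.0930, limma). Of 5 epithelial markers, Epcam and Cdh1 were well above background on no array and Krt14 was the only one tested (0.19, adjusted p = 0.536, limma). Their summed log2 level was -3.07 to -2.83 in sham and -2.76 to -2.26 in tail-suspension, and its part in the rise of Col7a1 was not tested.

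None of the remaining other collagens passed. Col14a1, which coats fibrils, changed by -0.70 (adjusted p = 0.0863, limma), while its second probe gave -0.15. Col16a1, Col20a1, Col23a1 and Col9a2 had fold changes between -0.23 and 0.05 with overlapping groups, and the signs of Col23a1 and Col9a2 turned under other scalings. The 11 untested genes were Col6a6, well above background on 2 sham and 1 tail-suspension array, Col17a1, so on 1 tail-suspension array, and Col6a4, Col8a2, Col9a1, Col9a3, Col10a1, Col12a1, Col13a1, Col19a1 and Col28a1, so on none. For these 9 only an upper limit of the level is known. Of the 8 collagen genes with more than 1 tested probe, the probes had the same sign in 7, the exception being Col23a1 with values next to 0.

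The promoters of the strongest faller among the fibrillar genes and of the only riser are shown because the letters found in them differ. Promoter windows in RefSeq (GRCm38.p6) matched 33 of the 41 genes, with 36 windows. Searched on both strands were the CCAAT box (CCAAT), the GC box (GGGCGG) and the TATA string (TATAAA), none of which contains another, and every match is in capitals. The Col3a1 window is chr1:45311288-45311587 and the Col7a1 window chr9:108953336-108953635, both on the plus strand.

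Col3a1 promoter: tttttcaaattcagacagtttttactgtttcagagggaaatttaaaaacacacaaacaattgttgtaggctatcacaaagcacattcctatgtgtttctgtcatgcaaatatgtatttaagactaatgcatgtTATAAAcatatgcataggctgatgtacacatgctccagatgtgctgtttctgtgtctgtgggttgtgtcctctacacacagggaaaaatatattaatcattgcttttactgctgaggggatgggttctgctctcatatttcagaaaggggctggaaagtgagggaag

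Col7a1 promoter: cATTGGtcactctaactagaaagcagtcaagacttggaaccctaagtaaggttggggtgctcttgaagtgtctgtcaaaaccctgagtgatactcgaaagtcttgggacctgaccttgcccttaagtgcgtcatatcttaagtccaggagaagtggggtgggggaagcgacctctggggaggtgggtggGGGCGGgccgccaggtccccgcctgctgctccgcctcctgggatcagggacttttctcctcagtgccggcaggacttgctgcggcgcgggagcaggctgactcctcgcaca

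The Col3a1 window held the TATA string and neither of the other motifs, and the Col7a1 window held the CCAAT box and the GC box but no TATA string. The CCAAT box was found in 36.1% of the collagen windows and 37.4% of all 32851 windows of this length. The TATA string was found in 13.9% and 13.6%, and the GC box in 61.1% and 35.7%. Of the 9 lower genes with a window, 3 held the CCAAT box, 5 the GC box and 1, Col3a1, the TATA string. These are matches of letters in a window, not sites of binding.

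Collagen chains need enzymes and chaperones in the endoplasmic reticulum before they are secreted. Of the 18 genes listed for this, all tested, 3 fell, 2 rose and 13 did not pass, with a median change of -0.10 against -0.01 over all tested genes. The share called was 27.8%, near the 21.2% of all tested genes. Serpinh1, the collagen-specific chaperone HSP47, lay at 16.7, 18.4 and 13.9 in sham and at 8.68, 8.65 and 8.22 in tail-suspension, and fell by 0.93 (SE 0.12, adjusted p = 0.00601, limma). All its tail-suspension arrays lay well below the lowest sham array. Glt25d2, a galactosyltransferase of collagen, fell by 0.76 (adjusted p = 0.00327, limma), and Sec24d, part of the coat that carries procollagen out, by 0.39 (adjusted p = 0.0317, limma). Mia3, which loads procollagen into that coat, rose by 0.38 (adjusted p = 0.0262, limma), and the lysyl hydroxylase Plod3 by 0.35 (adjusted p = 0.0393, limma). These smaller changes depended on single arrays: with 1 array left out at a time, the call of Sec24d was lost in all 6 fits, and those of Mia3 and Plod3 passed in 1 of 6 each, while Serpinh1 and Glt25d2 passed in all 6. The calls of Serpinh1 and Glt25d2 were lost with the row block. The prolyl hydroxylase P4ha1 changed by -0.41 (adjusted p = 0.0725, limma) and the lysyl hydroxylase Plod2 by 0.01 (adjusted p = 0.959, limma).

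Outside the cell, procollagen is trimmed and cross-linked. Of 11 tested genes in this list, 2 fell, 1 rose and 8 did not pass, with a median change of -0.18. The share called was 27.3%, near the 21.2% of all tested genes. Pxdn, the peroxidase that cross-links type IV collagen, lay at 13.2, 13.1 and 16.1 in sham and at 5.68, 5.69 and 5.01 in tail-suspension, and fell by 1.36 (SE 0.12, adjusted p = 0.00235, limma). Lox, the lysyl oxidase that cross-links fibrils, lay at 0.0348, 0.0332 and 0.0465 in sham, on no array well above background, and at 0.241, 0.148 and 0.385 in tail-suspension, on all of them. It was at least 4.99-fold higher (adjusted p = 0.00581, limma), and it was tested only because of its tail-suspension arrays. Its fitted change of 2.67 was 0.79 under normexp, and its call was lost with the row block (adjusted p = 0.0729, limma). Pxdn and Lox moved in opposite directions, each with groups that did not overlap. Tll1, a procollagen proteinase, fell by 0.32 (adjusted p = 0.0360, limma), a call lost in all 6 fits that left out an array, and its relative Bmp1 changed by -0.11 (adjusted p = 0.596, limma).

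Of 10 proteins that bind fibrils, all tested, 2 fell, 1 rose and 7 did not pass. The share called was 30.0%, against 21.2% of all tested genes. Sparc, a collagen chaperone of the matrix, lay at 203, 223 and 257 in sham and at 130, 103 and 128 in tail-suspension and fell by 0.92 (SE 0.14, adjusted p = 0.00887, limma). Its call was kept in every alternative but the row block. Tnxb, which spaces fibrils, fell by 0.41 (adjusted p = 0.0206, limma) and passed in 2 of the 6 fits without an array. Thbs2, whose loss disturbs fibril shape, lay at 0.760, 0.583 and 0.644 in sham and at 1.96, 2.00 and 2.63 in tail-suspension and rose by 1.73 (SE 0.16, adjusted p = 0.00255, limma). None of the 10 laminin, nidogen, perlecan and agrin genes, the partners of type IV collagen, passed the adjusted threshold. Their fold changes were below 0 for 8, and for 7, or 70.0% against 46.5% of all tested genes, the groups did not overlap. Agrn came closest at -0.51 (adjusted p = 0.0513, limma).

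Of 8 tested collagen receptors, 2 integrin chains fell, Itga11 by 0.88 (adjusted p = 0.0433, limma) and Itga1 by 0.56 (adjusted p = 0.0187, limma). The other 6 did not pass, so that 25.0% were called, near the 21.2% of all tested genes. Without an array at a time, Itga11 passed in 1 of 6 fits and Itga1 in 4 of 6. The discoidin receptor Ddr2 changed by -0.19 (adjusted p = 0.265, limma). Of 9 tested genes of collagen breakdown, 2 fell and 2 rose, or 44.4% called against 21.2% of all tested genes. The collagenase Mmp13 lay at 0.0886, 0.116 and 0.0841 in sham and at 0.0145, 0.0157 and 0.0274 in tail-suspension, where no array was well above background, and was at least 2.07-fold lower (adjusted p = 0.00383, limma). It was tested through its sham arrays alone, and its fitted change of -2.37 was -0.67 under normexp. The surface protease Fap fell by 1.02 (adjusted p = 0.00493, limma). Both genes that rose encode inhibitors of metalloproteinases: Timp4 rose by 1.48 (SE 0.23, adjusted p = 0.00959, limma) and Timp3 by 0.84 (SE 0.10, adjusted p = 0.00476, limma). Neither call held with the row block (adjusted p = 0.0729 and 0.0574, limma). Of the other proteases in the list, the membrane protease Mmp14 changed by 0.43 (adjusted p = 0.0908, limma) without overlap, and Mmp8 and Mmp9 were well above background on no sham array and on 2 and 1 tail-suspension arrays and were not tested. Mmp8 lay at 0.434, 0.0419 and 0.249 in tail-suspension replicates 1, 2 and 3.

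**Figure D4:**
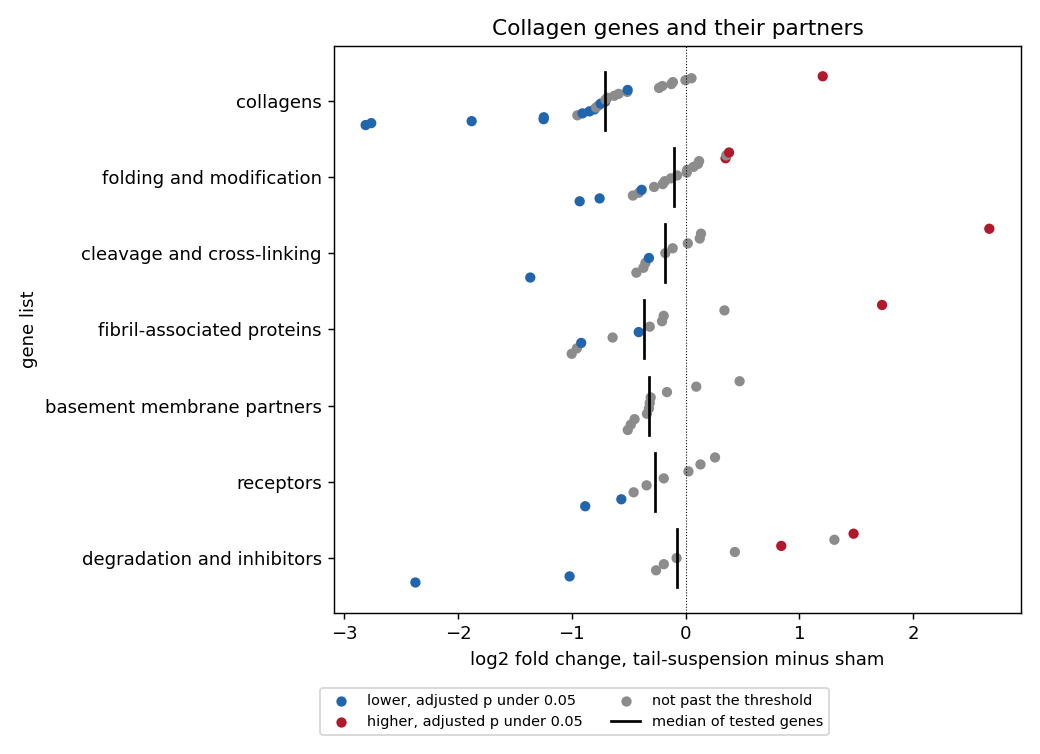
Points are log2 fold changes of the tested genes in 7 lists, tail-suspension minus sham, blue for lower, red for higher and grey for not past the threshold, and black bars are medians. The collagen median of -0.70 lies below those of the other lists, which run from -0.36 for the fibril-associated proteins to -0.08 for degradation and inhibitors.

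In heart tissue RNA, fewer cells of a type and less RNA per cell cannot be told apart, so the cell types that make collagen were read from their markers. Of 8 fibroblast markers, Scara5 rose by 0.87 (adjusted p = 0.0139, limma) and 7 did not pass, with values from -0.64 for Lum, whose groups did not overlap, to 0.48 for Mfap5. That is 12.5% called, against 21.2% of all tested genes. Of the 8 values 4 were below 0, among them Pi16 (-0.41) and Tcf21 (-0.03), Pdgfra was at 0.19, and the median was 0.08. Their summed log2 level was 7.24 to 7.37 in sham and 7.23 to 7.68 in tail-suspension, most of it from Gsn at 116 to 162 times the 75th percentile. Of 6 markers of activated fibroblasts, Meox1 fell by 1.28 (adjusted p = 0.00578, limma), as did Fap, which is also in the breakdown list, while Cthrc1 and Tnc were well above background on no array. Postn, a matrix protein of activated fibroblasts, had -0.96 (adjusted p = 0.113, limma) and Acta2, which smooth muscle also expresses, 0.19 (adjusted p = 0.607, limma), and the median of the 4 tested markers was -0.99. The summed level of this list, most of it from Acta2, was 4.57 to 5.18 in sham and 4.63 to 5.29 in tail-suspension. The part of these cells in the lower fibrillar levels was not tested.

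Endothelial cells make type IV and type XV collagen. Of their 8 markers 4 fell, namely Kdr by 0.55 (adjusted p = 0.0159, limma), Emcn by 0.50 (adjusted p = 0.0406, limma), Tie1 by 0.43 (adjusted p = 0.0476, limma) and Egfl7 by 0.31 (adjusted p = 0.0480, limma), while Pecam1 changed by 0.19 (adjusted p = 0.291, limma). With 1 array left out at a time, Kdr passed in 4 of 6 fits, Emcn and Tie1 in 1 each and Egfl7 in 0. Their summed log2 level was 7.53 to 7.63 in sham and 7.15 to 7.32 in tail-suspension, without overlap. Its part in the lower type IV and Col15a1 levels was not tested. Of 8 mural cell markers, Kcnj8 was lower (-0.56), a call lost in 8 of 16 alternatives, and 7 did not pass, among them Myh11 (0.51) and Rgs5 (0.22), higher without overlap. The mural median was -0.01, and the summed level was 6.33 to 6.49 in sham and 6.39 to 6.59 in tail-suspension. Of 8 cardiomyocyte markers, Actc1 was lower (-0.33), a call lost in all 6 fits without an array, and the summed level was 11.87 to 11.94 in sham and 11.74 to 11.80 in tail-suspension. For the mural and the cardiomyocyte markers alike, 12.5% were called, against 21.2% of all tested genes.

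Blood cell markers were read in the same way. Of 4 tested erythroid markers none passed, but all 4 had fold changes below 0 and the summed log2 level was 8.74 to 9.43 in sham and 6.73 to 8.43 in tail-suspension. Of 4 tested neutrophil markers 3 rose: Retnlg by 5.42, S100a8 by 4.80 and S100a9 by 4.62 (adjusted p = 0.00384, 0.00705 and 0.00661, limma). Over the alternatives the rise of Retnlg ran from 1.82 to 6.68. The summed level of the list differed far less, at 7.16 to 7.42 in sham and 7.69 to 7.87 in tail-suspension. Of 5 tested macrophage markers Cd163 rose, at least 3.39-fold. It was tested through its tail-suspension arrays alone, its fitted change of 2.63 was 0.51 under normexp, and its call was lost in 6 of 15 alternatives, among them those without tail-suspension replicate 1 or 3. The macrophage list had a summed level of 4.69 to 5.10 in sham and 4.84 to 5.47 in tail-suspension. Among Schwann cell markers Prx rose by 0.47, a call that held in 3 of 6 fits without an array, and the summed level was 0.95 to 1.82 in sham and 0.76 to 1.72 in tail-suspension. For the tested macrophage and Schwann cell markers alike, 20.0% were called, near the 21.2% of all tested genes. No cartilage and valve marker and no epicardial marker passed, with summed levels of 0.02 to 0.81 and 0.38 to 0.90 in sham and -0.22 to 0.80 and 0.53 to 1.21 in tail-suspension. The part of these cells in the collagen levels was not tested.

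**Figure D5:**
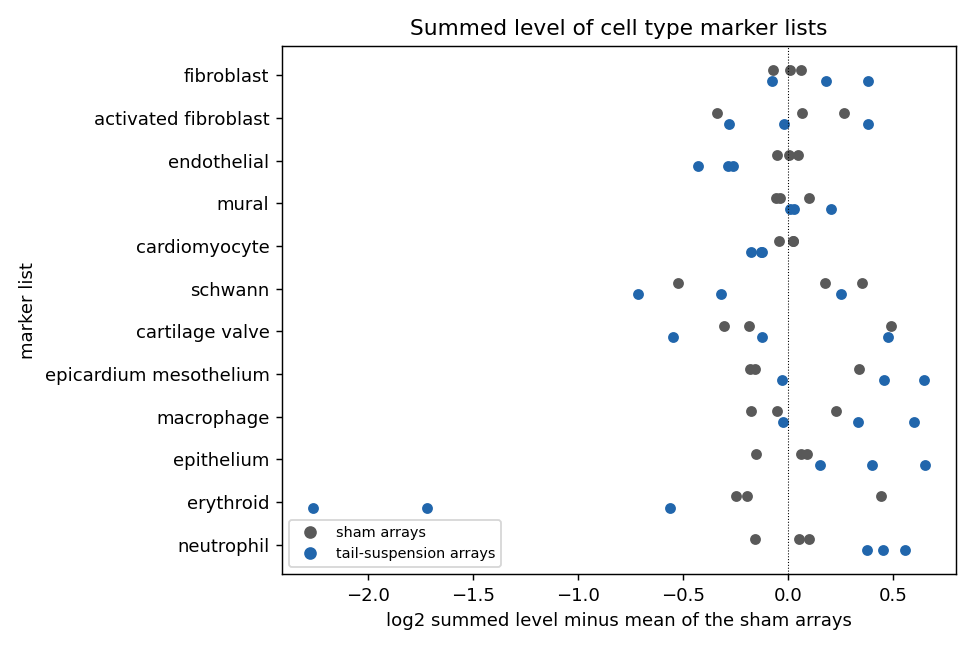
Each point is the summed level of a marker list on an array, on the log2 scale and relative to the mean of the 3 sham arrays, in grey for sham and blue for tail-suspension. The endothelial, cardiomyocyte and erythroid lists lie lower in tail-suspension and the neutrophil list higher without overlap, and the fibroblast list overlaps. The epithelial list, of which only 1 of 5 markers was tested, also lies higher without overlap, at dim summed levels of -3.07 to -2.26.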

How the data were processed

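Gene expression was measured in 3 sham and 3 tail-suspended mouse hearts on 1-colour arrays. Per the labels, the authors extracted spots with Agilent Feature Extraction 10.7.1.1 and deposited, for each spot, a processed intensity, which is background-corrected. A deposited table of log2 values covers the same arrays, but its normalization is not given in the sources used here. All 6 of its columns had a median of 4.32 and followed the scanner values closely (r above 0.999). Gene names and mm9 coordinates are those of the deposited files.

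The log2 of the processed intensity was scaled in R 4.3.3 by subtracting that of each array's 75th percentile (302 to 376). Control spots and outlier spots (146 to 212 per array) were left out, and spots of a probe were averaged. A probe was well above background on an array when 50% or more of its spots were flagged so. Groups were compared with limma 3.58.1 over 28032 probes. Precision is limited by the number of arrays. For a gene below background in a whole group, the bound compares the brighter group with dim arrays raised, where lower, to the lowest signal that any probe well above background had on that array. Pairs of genes were compared with an exact permutation test, two-sided.

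The members, classes, lists and tests were chosen with earlier results of these data known. Values on every array were given for the 6 largest falls and rises past the threshold without overlap, for the chains of the main cardiac collagens, and for a few partners with large changes. From the other lists, genes past the threshold (at most 3 in each direction) and defining enzymes were named. Alternatives were normexp with an offset of 50, quantile normalization, another percentile set, the deposited log2 values, no filter and a stricter filter, the methods' t-test, the replicate number or the slide row as a block, the mean over a gene's probes, and each array left out. In simulated data for tail-suspension against sham over 28003 probes, 51% of changes of 1 and 93% of changes of 2 on the log2 scale were called, and 14 unchanged probes were. The simulated noise was independent between probes and arrays, with no shared array or slide row effect, so these rates need not hold for the real arrays.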

Additional observations from a re-analysis of the deposited data

How the results depend on the processing

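The number of lower collagen genes was 11, and leaving out an array at a time gave 5 to 10. It was 4 without the filter on dim probes, 4 by the methods' t-test (Benjamini-Hochberg adjusted) and 0 with the slide row as a block. Under the other alternatives it lay between 9 and 16. Lower calls over all tested probes fell as well, from 2683 of 28032 to 790 of 55681 without the filter. By the t-test they were 1250 of 28032. The number of higher genes was 1, and 0 with the row as a block (10 lower and 1 higher at an unadjusted p under 0.05 by limma). Over all tested probes, 320 were higher and 177 lower with that block, and no alternative moved the median of all tested probes by more than 0.1. The basement membrane median of -0.61 was -0.45 under normexp. The median of the other collagens, -0.17, was -0.41 with only probes well above background on all arrays and ran from -0.43 to -0.12 when single arrays were left out. The 3 class medians stayed below 0 in each alternative. The cause of these shifts was not tested. Some of the fits use fewer samples or more probes.

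Signs turned only for changes that had not passed. Col16a1 was 0.18, Plod2 -0.11 and Tcf21 0.11 with the row as a block, and Col20a1 ran from -0.31 to 0.031 when single arrays were left out. Col23a1 was 0.0048 with another percentile set and 0.0092 as the mean of its probes, and ran from -0.15 to 0.073 when single arrays were left out. Col9a2 was -0.12 under normexp, -0.025 under quantile normalization and -0.016 with the deposited log2 values. In the same omissions Col9a2 ran from -0.057 to 0.16, Plod2 from -0.12 to 0.16, Bmp1 from -0.21 to 0.013, Tcf21 from -0.15 to 0.029 and Acta2 from -0.018 to 0.35.

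Same-numbered sham and tail-suspension arrays deviated with correlations of -0.02, -0.02 and 0.05, so no pairing by replicate number was seen. The labels give a number and do not say whether the replicates were matched. With the replicate block, 11 collagen genes were lower and 1 higher, of which 9 were shared with the fit without it; Col14a1, Col1a1 and Col5a1 were added and Col4a2, Col4a3 and Col8a1 lost.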
